A study of Sus scrofa with 22 samples.

Results

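Fast skeletal muscle fibres are marked by their own set of contractile and calcium-handling proteins, and 6 genes of that set were followed here through pig development. They are the myosin heavy chain MYH2, the myosin light chains MYL1 and MYLPF, the troponin I TNNI2, the calcium pump ATP2A1 and the calcium release channel RYR1. Every probe set that the array annotation gives to one of these symbols alone was taken. That gave 7 probe sets for the 6 genes, out of 6765 genes that the annotation names singly and 23999 probe sets tested. ATP2A1 had 2 probe sets and each other gene had 1. The probe sets are Ssc.15909.1.S1_at for MYH2, Ssc.14459.1.S1_a_at for MYL1, Ssc.20141.1.S1_at for MYLPF, Ssc.20584.2.S1_a_at for TNNI2, Ssc.8.1.S1_at for RYR1, and Ssc.15030.1.S1_a_at and the dimmer Ssc.15030.2.S1_at for ATP2A1.

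Samples came from pigs of 4 ontogenetic stages, namely 94 days post conception (94 dpc, 6 samples) and 1, 28 and 188 days after birth (1 dpn and 28 dpn with 6 samples each, 188 dpn with 4). Every animal was born to, or taken from, a German Landrace gilt fed the gestational adequate protein (AP) diet, so all 4 groups share breed and maternal diet and differ in age. Each stage drew on the litters of 3 gilts. Which animals were littermates is not labelled, so the p-values, which count animals as independent, may be too small. Values are signal intensities of an Affymetrix porcine array, scaled by the submitters' software to the same trimmed mean on every array. Tests used limma on log2(signal + 16) over all 22 arrays, with Benjamini-Hochberg adjustment over the 23999 probe sets, and an adjusted p under 0.05 made a call.

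The sample labels name liver as the tissue and the series title names muscle. All 13 measured genes of a list of skeletal muscle markers had a median signal above background (69.7, set by control probe sets without a target), and their summed signal was 229927 to 791000 on the 22 arrays. These 13 include the member MYH2, with a signal of 4737 to 92460. The summed signal of 16 measured liver markers was 2334 to 57183, with the highest value in replicate 1 of 94 dpc, and 4 of the 16 (APOB, FGG, CYP2E1 and TAT) had a median below background. The samples are therefore described by their stage and not as liver. All counts of called members given below were the same without the 2 arrays with the most liver and pancreas signal. At 1 dpn, 4 of 6 arrays (replicates 2 to 5) had a low 5' signal of the GAPDH control, with a 5'-to-3' ratio of 0.140 to 0.332, while replicates 1 and 6 had 1.14 and 1.15, like the other stages (median 1.19). Markers of other cell types also differed by stage. Endothelial markers had a mean summed signal of 16436 at 94 dpc, 5237 at 1 dpn, 11090 at 28 dpn and 4080 at 188 dpn, fibroblast and matrix markers 40135, 14078, 18402 and 12166 in the same order, and macrophage markers 2560, 1642, 5659 and 2441. At 1 dpn against 94 dpc 7 of 8 endothelial and 4 of 5 fibroblast and matrix markers were called lower. At 28 dpn against 1 dpn 6 of 8 endothelial and 4 of 5 macrophage markers were called higher. Of all probe sets 21.7% were called lower in the first comparison and 13.9% higher in the second. With only replicates 1 and 6 of 1 dpn these marker counts were 6, 4, 5 and 0 in the same order. The part of these cells in the members' differences was not tested. In such bulk samples, fewer muscle fibres and less RNA per fibre cannot be told apart.

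In a muscle fibre, an action potential opens RYR1 in the membrane of the sarcoplasmic reticulum, and the calcium released binds troponin C. Troponin I then lets go of actin, and myosin heavy chains, each carrying an essential and a regulatory light chain, pull on the thin filament. ATP2A1 (SERCA1) pumps the calcium back and so ends the contraction, and slow fibres use the related pump ATP2A2 instead. Fast fibres use MYL1, MYLPF and TNNI2 where slow fibres use MYL3, MYL2 and TNNI1, and MYH2 encodes the heavy chain of type IIA fibres.

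The members fell into groups by when their signal changed. Both probe sets of ATP2A1 were higher at 1 dpn than at 94 dpc, and the dimmer one, but not the main one, was higher again at 28 dpn. MYH2 and RYR1 were higher at 28 dpn than at 1 dpn and were not called between 1 dpn and 94 dpc. MYL1, MYLPF and TNNI2 were among the brightest probe sets at every stage, and their differences between stages were small and depended on how the arrays were scaled. No member was called between 188 dpn and 28 dpn.

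**Figure D1:**
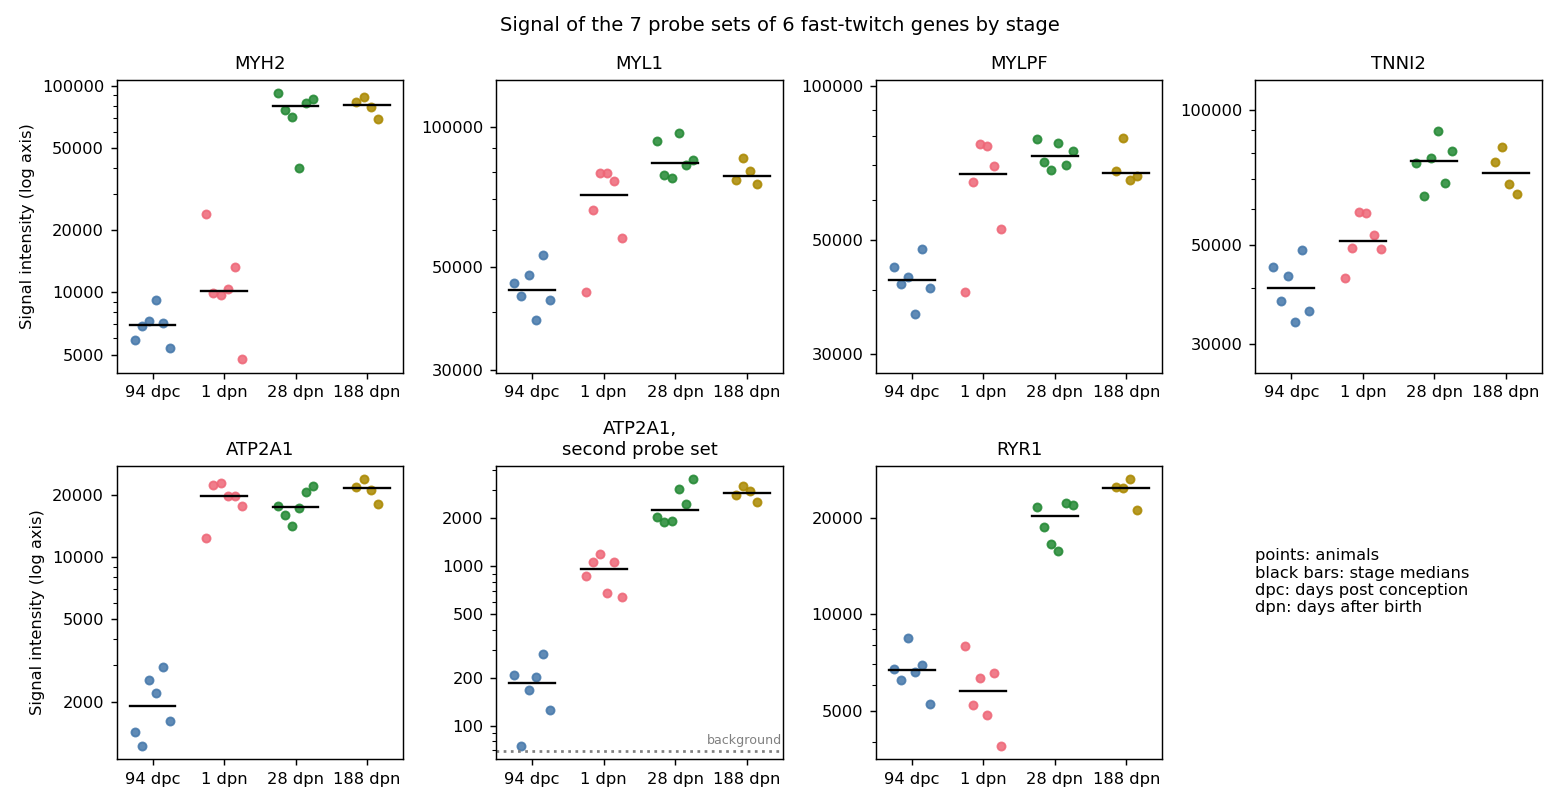
Signal intensity (log axis, a separate range for each panel) of the 7 probe sets by stage, with 1 point per animal a black bar at each stage's median and, for the dimmer ATP2A1 probe set, a dotted line at background. ATP2A1 separates 94 dpc from all later stages, with no 1 dpn value of its main probe set below 12457 and no 94 dpc value above 2938, while MYH2 and RYR1 separate the first 2 stages from 28 and 188 dpn.

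The brightest members stood near the top of the measured range. MYL1 reached 78.2 to 95.3% of the brightest probe set on its own array and ranked between 3 and 16 among all probe sets. MYLPF reached 68.4 to 86.8% (rank 11 to 42) and TNNI2 55.8 to 87.2% (rank 7 to 90). Each of these 3 probe sets was at 50% or more of the array maximum on all 22 arrays. MYH2 reached that level on 9 arrays, 5 of 6 at 28 dpn and all 4 at 188 dpn, and on none before. A hybridization control added to every array, cre, was itself at 67.1 to 93.8% of the array maximum. The array maximum averaged 51311 at 94 dpc, 81668 at 1 dpn, 101019 at 28 dpn and 87965 at 188 dpn. The means of MYL1, MYLPF and TNNI2 rose and fell in the same order. That of MYH2 did not fall between the 2 oldest stages (74914 at 28 dpn and 79859 at 188 dpn). Whether the signals were tied to the maximum was not tested. Because these signals lay near the top of the range, the values below for MYL1, MYLPF, TNNI2 and MYH2 are log2 differences on the deposited scale, without a fold. How far the transcripts differed cannot be read from them.

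**Figure D2:**
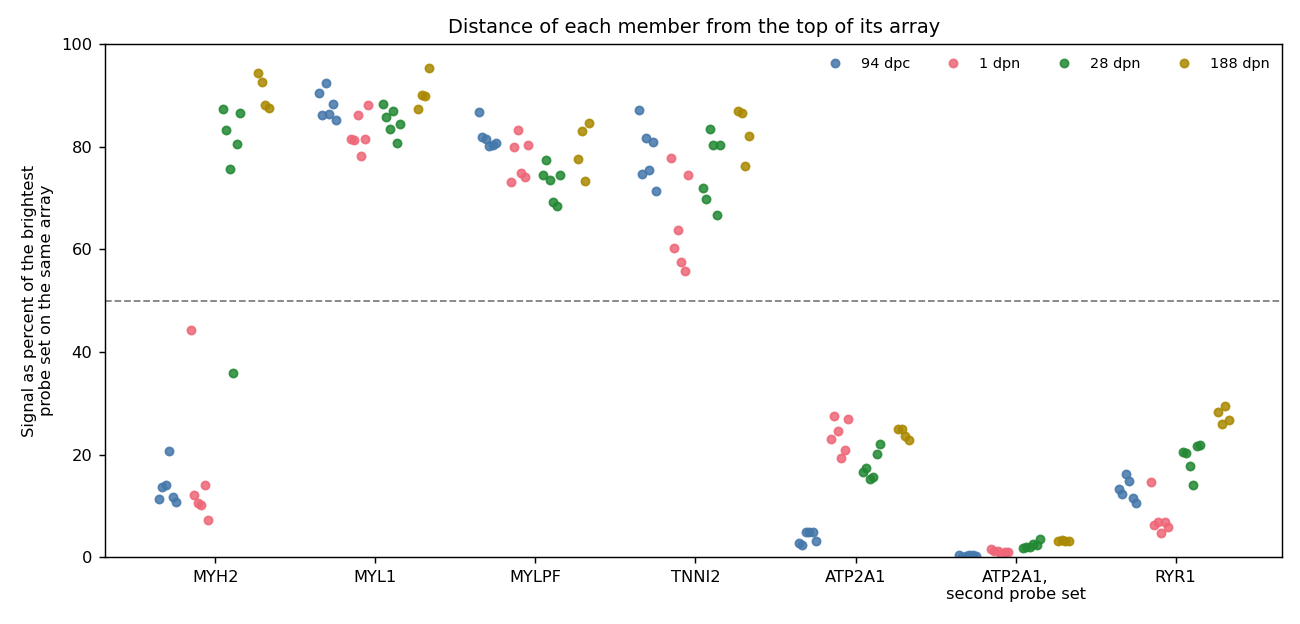
Signal of each member as a percentage of the brightest probe set on the same array, with 1 point per array, coloured by stage, and a dashed line at 50%. MYL1, MYLPF and TNNI2 lie above the line on all 22 arrays, MYH2 on 9, and ATP2A1 and RYR1 never exceed 29.5%.

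The myosin heavy chain MYH2, the motor of type IIA fibres, had a signal of 5358 to 9215 at 94 dpc (median 6965) and of 4737 to 24028 at 1 dpn (median 10142). At 28 dpn it was 40150 to 92460 (median 79701), and the 4 animals of 188 dpn had 83243, 88277, 78852 and 69064. The first 2 stages overlapped, 28 and 188 dpn overlapped, and every animal of these older stages was above every animal of the younger ones. MYH2 was higher at 28 dpn than at 1 dpn by log2 2.76 (SE 0.28, adjusted p = 4.74e-07) and higher at 188 dpn than at 94 dpc by log2 3.54 (SE 0.31, adjusted p = 9.01e-09). Both differences were called in all 15 alternatives other than leaving out single samples, with log2 values of 2.03 to 3.11 for the first and 2.70 to 3.81 for the second. The lowest of each came from capping all signals at the lowest array maximum. Between 1 dpn and 94 dpc the difference was log2 0.65 (95% interval 0.07 to 1.22, adjusted p = 0.078) and missed the threshold. Without replicate 6 of 1 dpn, the lowest of its stage, it was log2 0.88 (adjusted p = 0.00717), and without replicate 1, the highest, it was 0.41 (adjusted p = 0.199). With each array centred on its median it was 0.91 (adjusted p = 0.0148), and relative to the hybridization controls it was -0.51 (adjusted p = 0.175). The median of all probe sets relative to the hybridization controls was -1.23. Fast myosin heavy chains are close in sequence, and MYH1 and MYH4 have no probe set named to them alone in the annotation, so whether the MYH2 probe set also bound their transcripts was not tested.

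The spread of MYH2 at 1 dpn was the widest of the members measured there, with a coefficient of variation of 54.1%, against 12.5 to 25.0% for the others. At 28 dpn replicate 4 had 40150, the only sample of that stage below 50% of its array maximum. The same animal had the highest signals of its stage for the slow-fibre genes MYH7 (74083) and MYL3 (44801), the heavy chain and the essential light chain of slow fibres. It also had the highest signals of its stage for the fast-fibre members MYL1 (97218) and TNNI2 (89731). Its array had the highest maximum of the 22 arrays (111760).

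The light chains MYL1, the essential light chain of fast fibres, and MYLPF, their regulatory light chain, had almost the same profile. MYL1 had a signal of 38536 to 53009 at 94 dpc (median 44729), 44110 to 79844 at 1 dpn (71428) and 77836 to 97218 at 28 dpn (83865). The 4 animals of 188 dpn had 77014, 85824, 80288 and 75248. All animals of the 2 oldest stages were above all animals of 94 dpc, and 1 dpn spanned most of the range between them. MYLPF had 35784 to 48122 at 94 dpc (median 41739), 39638 to 77067 at 1 dpn (67401) and 68551 to 78833 at 28 dpn (72941), with 68376, 79228, 65521 and 66874 at 188 dpn. Over the 22 arrays, each profile centred on its own mean, the root-mean-square difference between MYL1 and MYLPF was log2 0.08, the smallest among the pairs of members.

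On the deposited scale both light chains were higher at 1 dpn than at 94 dpc, MYL1 by log2 0.55 (SE 0.15, adjusted p = 0.00798) and MYLPF by log2 0.56 (SE 0.16, adjusted p = 0.00798). At 188 dpn MYL1 was higher than at 94 dpc by log2 0.82 and MYLPF by 0.74 (adjusted p = 0.000583 and 0.00191). These calls were lost with signals capped at the lowest array maximum, after quantile normalization, where the differences between 1 dpn and 94 dpc were -0.046 and -0.020, and relative to the array maximum, where they were -0.091 and -0.079. Relative to the hybridization controls both were lower at 1 dpn, by log2 -0.60 for MYL1 and -0.59 for MYLPF (adjusted p = 0.000912 and 0.00114). The median of all probe sets was lower still, at log2 -1.23 under that scaling and -0.77 relative to the array maximum. The samples with low 5' signal also carried the higher values of 1 dpn. MYL1 was 66159 to 79844 on those 4 arrays and 44110 and 57727 on the 2 even ones, and MYLPF was 65024 to 77067 on the low ones and 39638 and 52686 on the even ones. With only the even arrays, 2 of the 7 members were called at 1 dpn against 94 dpc in place of 4, and neither light chain was among them. With the same arrays 6 of 7, both light chains included, were called at 28 dpn against 1 dpn in place of 4.

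TNNI2, the inhibitory subunit of fast-fibre troponin, had a signal of 33666 to 48517 at 94 dpc (median 40006), 42131 to 58992 at 1 dpn (50815) and 64278 to 89731 at 28 dpn (77031). The animals of 188 dpn had 76617, 82571, 68100 and 64754. The animals of 28 dpn all lay above those of 1 dpn, and 1 dpn overlapped with 94 dpc. TNNI2 was higher at 28 dpn than at 1 dpn by log2 0.56 (SE 0.14, adjusted p = 0.00666) and higher at 188 dpn than at 94 dpc by log2 0.86 (SE 0.16, adjusted p = 0.000174). The first call was lost after quantile normalization (log2 0.30, adjusted p = 0.0720), with each array centred on its median (0.37, adjusted p = 0.0752), relative to the array maximum (0.22, adjusted p = 0.270) and with capped signals (0.014, adjusted p = 0.952). Between 1 dpn and 94 dpc its difference of log2 0.36 missed the threshold (95% interval 0.06 to 0.66, adjusted p = 0.0593). Relative to the hybridization controls that difference was -0.79 and called (adjusted p = 0.000215), where the median of all probe sets was -1.23. The difference between 188 dpn and 94 dpc was 0.080 relative to the array maximum and 0.13 after quantile normalization, and was called in neither, nor with capped signals or relative to the hybridization controls.

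ATP2A1, the calcium pump of the fast-fibre sarcoplasmic reticulum, was the member with the earliest large change. Its main probe set had 1431, 1225, 2546, 2208, 2938 and 1617 at 94 dpc and 12457, 22510, 22819, 19753, 19789 and 17722 at 1 dpn. It had 14264 to 22088 at 28 dpn (median 17537) and 22029, 23896, 21218 and 18125 at 188 dpn. No animal of 94 dpc came near the later stages, and the 3 later stages overlapped. At 1 dpn it was 9.83-fold higher than at 94 dpc (log2 3.30, SE 0.21, adjusted p = 5.44e-10), and at 188 dpn 11.1-fold higher than at 94 dpc (log2 3.47, SE 0.23, adjusted p = 2.89e-10). On the even 1 dpn arrays alone, with 12457 and 17722, it was still above every animal of 94 dpc. The difference between 1 dpn and 94 dpc was called in all 15 alternatives, at log2 2.14 relative to the hybridization controls and 3.56 with arrays centred on their median. Between 28 dpn and 1 dpn the main probe set differed by log2 -0.08 (95% interval -0.51 to 0.35, adjusted p = 0.838).

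The second probe set of ATP2A1 showed the same large difference around birth and also a later one. It had 75.1 to 282 at 94 dpc (median 184), 638 to 1193 at 1 dpn (964) and 1884 to 3506 at 28 dpn (2252), with 2790, 3168, 2941 and 2524 at 188 dpn. Its first 3 stages did not overlap. It was 5.04-fold higher at 1 dpn than at 94 dpc (log2 2.33, SE 0.25, adjusted p = 3.15e-07) and 2.66-fold higher at 28 dpn than at 1 dpn (log2 1.41, SE 0.25, adjusted p = 0.000231). At 188 dpn it was 15.9-fold higher than at 94 dpc (log2 3.99, SE 0.27, adjusted p = 3.79e-10). The 2 probe sets therefore disagreed between 28 dpn and 1 dpn, and their mean was higher at 28 dpn by log2 0.67 (adjusted p = 0.026). The dimmer probe set reached at most 3.49% of its array maximum and the main one 27.6%.

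RYR1, the channel that releases calcium from the sarcoplasmic reticulum, had a signal of 5247 to 8443 at 94 dpc (median 6697) and 3898 to 7988 at 1 dpn (5770). At 28 dpn it had 21655, 18755, 16577, 15748, 22212 and 21893, and at 188 dpn 24926, 24701, 26343 and 21163. The 2 younger stages overlapped with each other, as did the 2 older ones, and no younger animal reached an older one. RYR1 was 3.40-fold higher at 28 dpn than at 1 dpn (log2 1.77, SE 0.17, adjusted p = 3.45e-07) and 3.64-fold higher at 188 dpn than at 94 dpc (log2 1.86, SE 0.19, adjusted p = 9.8e-08). Both were called in all 15 alternatives, with log2 values of 1.43 to 2.12 and 1.09 to 2.13. Between 1 dpn and 94 dpc the difference was log2 -0.23 (95% interval -0.59 to 0.13, adjusted p = 0.333). It was called lower after quantile normalization (-0.60, adjusted p = 0.00989), relative to the array maximum (-0.88) and relative to the hybridization controls (-1.39). With arrays centred it was 0.028. All probe sets together had a median of 0.050 after quantile normalization, -0.77 relative to the array maximum and -1.23 relative to the hybridization controls. Relative to the maximum and to the controls, RYR1 thus lay close to the shift of all probe sets. Around birth the pump and the channel thus had unlike differences, log2 3.30 and -0.23, with 95% intervals of 2.87 to 3.73 and -0.59 to 0.13.

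Counted over the 7 probe sets, 4 were called higher and 0 lower at 1 dpn against 94 dpc (MYL1, MYLPF and both of ATP2A1), where 32.7% of all probe sets tested were called, 10.9% higher and 21.7% lower. Between 28 dpn and 1 dpn 4 were higher at 28 dpn (MYH2, TNNI2, RYR1 and the second of ATP2A1), against 13.9% of all higher and 22.3% called in either direction. All 7 were higher at 188 dpn than at 94 dpc, against 13.6% of all, and all 7 at 28 dpn than at 94 dpc, against 13.1%, comparisons that share the 94 dpc animals. Between 188 dpn and 1 dpn 4 were higher at 188 dpn (MYH2, TNNI2, RYR1 and the second of ATP2A1), against 14.2%. Every animal of the later stage was above every animal of the earlier one for 2 members at 1 dpn against 94 dpc (5.29% of all probe sets), for 4 at 28 dpn against 1 dpn (4.98%) and for 7 at 188 dpn against 94 dpc (13.8%). Between 188 and 28 dpn 0 of 7 were called by limma, with 11.8% of all called in either direction, and 0 had an unadjusted p under 0.05 (the lowest was 0.104, for RYR1). The widest 95% interval of a difference in that comparison was log2 -0.50 to 0.77, for MYH2. Over the 4 stages together the F test called all 7, with 51.4% of all probe sets called. The median difference of all probe sets was log2 -0.08 at 1 dpn against 94 dpc on the deposited scale, 0.18 with arrays centred on their median, -0.77 relative to the array maximum and -1.23 relative to the hybridization controls. Relative to the array maximum and with signals capped at the lowest array maximum, 4 of the 7 members were called at 188 dpn against 94 dpc in place of 7.

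**Figure D3:**
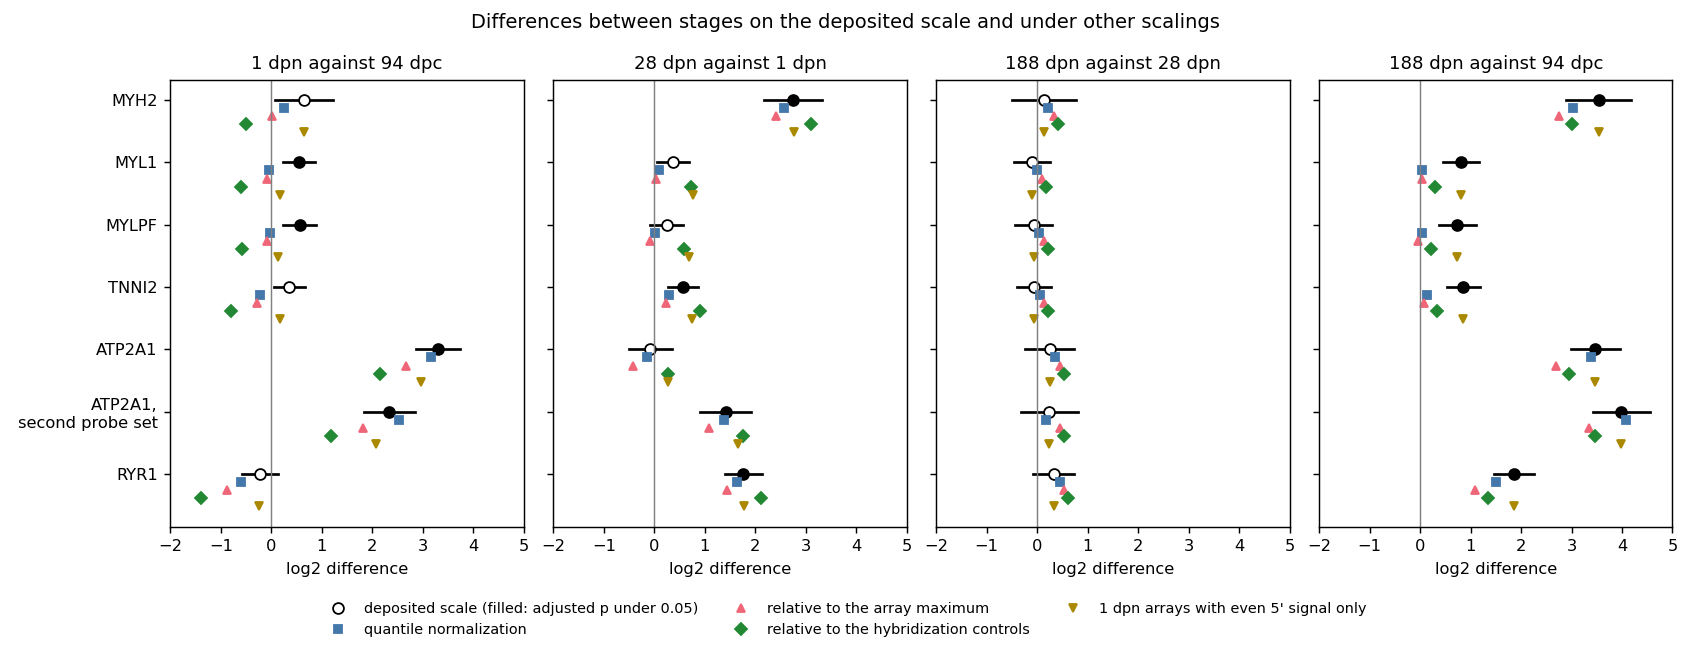
Log2 difference of each member in 4 comparisons. Black circles with 95% intervals are on the deposited scale (filled where called), and coloured marks give the same difference under 3 other scalings and with only the 2 even 1 dpn arrays. MYH2 at 28 dpn against 1 dpn, ATP2A1 at 1 dpn against 94 dpc and RYR1 at 28 dpn against 1 dpn stay right of 1 under each, while MYL1, MYLPF and TNNI2 at 1 dpn against 94 dpc lie on both sides of 0.

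The order of the 4 stages differed between members. For MYH2 the order by mean was 94 dpc, 1 dpn, 28 dpn, 188 dpn, with a called gap only between 1 and 28 dpn among neighbours. For RYR1 it was 1 dpn, 94 dpc, 28 dpn, 188 dpn, with a called gap only between 94 dpc and 28 dpn (log2 1.53, adjusted p = 8.35e-07). For the main probe set of ATP2A1 it was 94 dpc, 28 dpn, 1 dpn, 188 dpn, with a called gap only above 94 dpc. The second probe set of ATP2A1 had called gaps at both of its first steps in the order of age. MYL1, MYLPF and TNNI2 were lowest at 94 dpc and highest at 28 dpn on average, and 28 and 188 dpn did not differ beyond their spread. Of the 42 comparisons between stages (7 probe sets, 6 pairs of stages), 26 were called, each higher at the later stage. Relative to the array maximum 17 were called, 16 higher and 1 lower.

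Genes with the profile most like each member's were looked for among 7730 probe sets over the 22 arrays, by the root-mean-square difference of log2 values after centring each profile. For MYH2 the nearest were the phosphatase catalytic subunit PPP1CB (0.43), the phosphorylase kinase subunit PHKB (0.48) and TMOD4, which caps thin filaments (0.51). For RYR1 they were the glyoxalase GLO1 (0.30), SH3BGR (0.32) and the calcium/calmodulin-dependent kinase CAMK2D (0.32). For ATP2A1 they were the mitochondrial superoxide dismutase SOD2 (0.51), the carnitine acetyltransferase CRAT (0.58) and the phosphatase PPTC7 (0.60). The nearest to MYL1 were the muscle creatine kinase CKM (0.07), ubiquitin B, UBB (0.10), and the fast troponin C TNNC2 (0.10). Those of MYLPF were TNNC2 (0.07), GAPDH (0.07) and UBB (0.07), and those of TNNI2 were TPT1 (0.11), the calcium pump regulator SLN (0.14) and CKM (0.14). Of these neighbours of the 3 brightest members, each reached at least 73.3% of the array maximum on some array and none fell below 41.3%, so these profiles share the top of the scale.

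Partners of the members in the fast contractile apparatus and at the triad were read from lists. Of 12 fast contractile partners 4 were measured, the fast troponin T TNNT3, the troponin C TNNC2, the tropomyosin TPM1 and the Z-disc protein MYOZ1. At 28 dpn 3 of the 4 were higher than at 1 dpn (TNNT3 by log2 1.18, TPM1 by 0.86 and MYOZ1 by 0.64), where 13.9% of all probe sets were higher. The list median was 0.75, against 0.10 for all probe sets. All 4 were higher at 188 dpn than at 94 dpc, where 13.6% of all were higher, with a median of 0.98, against -0.07 for all. All 4 reached at least 50% of an array maximum, and after quantile normalization 1 of the 4 was called in that comparison. At 1 dpn against 94 dpc 2 were higher (TNNC2 by 0.63 and MYOZ1 by 0.76), where 10.9% of all were higher. After quantile normalization 0 of the 4 were higher and 2 lower.

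Of 24 triad and calcium-handling genes 8 were measured. At 28 dpn against 1 dpn 5 of the 8 were higher and 0 lower, with a median of log2 0.62, where 13.9% of all probe sets were higher. Among them were CACNA2D1, an accessory subunit of the voltage-gated calcium channel (mean signal 1137 at 28 dpn and 332 at 1 dpn, log2 1.88, adjusted p = 4.84e-05), and S100A1, a calcium sensor that binds RYR1 (290 and 76.5, log2 1.86, adjusted p = 0.000318). The 1 dpn mean of S100A1 was close to background (69.7), so the size of its differences from 1 dpn is uncertain. TMEM38A, a counter-ion channel of the sarcoplasmic reticulum, was higher by log2 1.06. Between 188 and 28 dpn 2 of the 8 were higher at 188 dpn, S100A1 by log2 1.80 and BIN1, which shapes the transverse tubules, by 0.70, where 3.65% of all probe sets were higher. Of the 8, 7 were higher at 188 dpn than at 94 dpc, with a median of 0.99, where 13.6% of all were higher. At 1 dpn against 94 dpc 4 were higher and 1, S100A1, was lower (mean signal 76.5 at 1 dpn and 533 at 94 dpc, log2 -2.68), where 10.9% of all were higher and 21.7% lower. With only the even 1 dpn arrays 0 were higher in that comparison and 2 lower.

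Slow-fibre genes and isoforms of the fetal or cardiac muscle were counted for contrast. Of 10 measured slow-fibre genes 5 were higher at 28 dpn than at 1 dpn, among them TNNT1 (log2 1.01), where 13.9% of all probe sets were higher. At 28 dpn against 94 dpc 8 of the 10 were higher and 2 lower, where 13.1% of all were higher. After quantile normalization 4 were higher and 1 lower. On the deposited scale a higher signal at 28 dpn was thus not particular to fast-fibre genes. At 188 dpn against 94 dpc 2 of the 10 were higher and 2 lower, where 13.6% of all probe sets were higher and 22.5% lower. Between 188 and 28 dpn 3 of the 10 were lower at 188 dpn, where 8.20% of all probe sets were lower. Those 3 were MYL3 (log2 -1.35), the tropomyosin TPM3 (-1.37) and the calcium store protein CASQ2 (-2.23). Of 8 measured fetal and cardiac genes 5 were lower at 1 dpn than at 94 dpc, where 21.7% of all probe sets were lower. At 188 dpn 7 of the 8 were lower than at 94 dpc, where 22.5% of all were lower. The embryonic light chain MYL4 had a mean signal of 215 at 1 dpn and 6813 at 94 dpc (log2 -4.95). The cardiac actin ACTC1 had 3391 at 188 dpn and 30214 at 28 dpn (log2 -4.03, adjusted p = 6.12e-05).

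**Figure D4:**
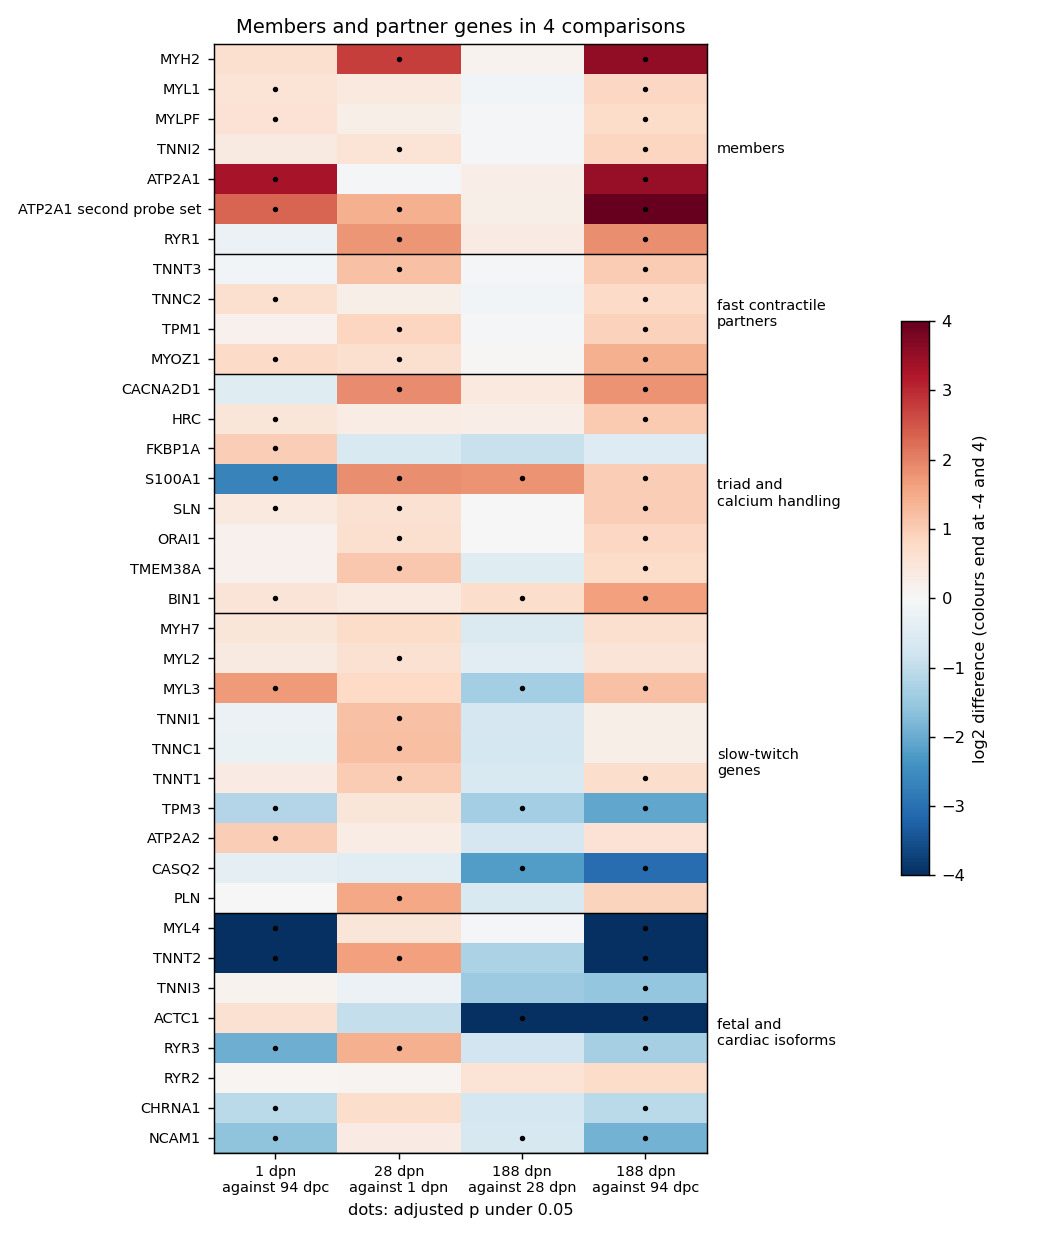
Log2 difference in 4 comparisons (columns) for the members and for the measured genes of 4 lists (rows), with dots where the adjusted p was under 0.05 and colours ending at -4 and 4. MYL4 and TNNT2 are the darkest blue at 1 dpn against 94 dpc, where ATP2A1 is the darkest red, and no fast contractile partner has a dot at 188 dpn against 28 dpn.

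Each member was then set against a counterpart on the same array, the slow-fibre isoform or, for RYR1, RYR3, a related channel known in mice from developing muscle. The shift of the within-array difference between stages was tested with an exact two-sided permutation test over samples, adjusted over 6 pairs and 4 comparisons. Of these 24 tests 8 passed, 7 with a shift toward the member and 1 toward the counterpart. A shift shows unequal change of the 2 probe sets and no more. The smallest p was 0.0022 for 6 animals against 6 and 0.0095 for 4 against 6.

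MYH2 shifted relative to MYH7, the slow heavy chain, by log2 2.01 at 28 dpn against 1 dpn (mean within-array difference 0.31 ± 0.68 and -1.69 ± 0.64, SD, n = 6 each, exact permutation adjusted p = 0.026). MYH2 itself was higher there by log2 2.76 and MYH7 by 0.75. With only the even 1 dpn arrays this shift was 1.285. MYH2 was at 50% or more of the array maximum on 9 arrays of 28 and 188 dpn. MYH7 also lay high on some arrays. It had 35657 in replicate 1 of 1 dpn, where the array maximum was 54177. In replicate 4 of 28 dpn it had 74083, where the maximum was 111760. The shifts of this pair therefore do not give the size of a transcript change. For 188 dpn against 94 dpc the shift was 2.90 (1.04 ± 0.68, n = 4, and -1.86 ± 0.38, n = 6, exact permutation adjusted p = 0.0286). ATP2A1 shifted relative to ATP2A2 by log2 2.33 at 1 dpn against 94 dpc (-0.73 ± 0.61 and -3.05 ± 0.52, n = 6 each, exact permutation adjusted p = 0.026), where ATP2A1 was higher by 3.30 and ATP2A2 by 0.97. Its shift at 188 dpn against 94 dpc was 2.88 (exact permutation adjusted p = 0.0286). The stages did not overlap in these ATP2A1 shifts. ATP2A2 had 33031 in replicate 1 of 1 dpn, where the array maximum was 54177, and 48982 in replicate 5, where it was 94220. Whether this limited the signal of ATP2A2 at 1 dpn was not tested.

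RYR1 shifted relative to RYR3 by log2 1.73 at 1 dpn against 94 dpc, by 1.11 at 188 dpn against 28 dpn and by 3.18 at 188 dpn against 94 dpc (exact permutation adjusted p = 0.026, 0.0286 and 0.0286). RYR1 itself differed by log2 -0.23 at 1 dpn against 94 dpc and RYR3 by -1.96, and RYR3 was below background in 2 of 6 animals of 1 dpn. With the mean of all RYR3 probe sets, the shifts at 1 dpn against 94 dpc and at 188 dpn against 28 dpn were 0.44 and 0.37 and no longer passed (exact permutation adjusted p = 0.148 and 0.178), while that at 28 dpn against 1 dpn, 1.84, did (0.026).

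MYL1 shifted toward its slow counterpart MYL3 at 1 dpn against 94 dpc, by log2 -1.16 (2.10 ± 0.68 and 3.26 ± 0.49, n = 6 each, exact permutation adjusted p = 0.026). Its opposite shift at 188 dpn against 28 dpn, 1.24, missed the threshold (exact permutation adjusted p = 0.0508). MYL1 was at 78.2% or more of the array maximum on every array, while MYL3 averaged 16112 at 1 dpn and 5051 at 94 dpc, so these shifts are no measure of a change in MYL1. The pairs MYLPF with MYL2 and TNNI2 with TNNI1 gave no call in 8 tests, with shifts of -0.60 to 0.62. For MYLPF with MYL2 both probe sets can lie near the top of the range. For TNNI2 with TNNI1 only the member did, at 55.8% or more of the array maximum on every array. Whether this limited how far the probe sets of a pair could part was not tested. Any 1 of the 188 dpn animals left out took the count of passing tests to 4 of 24, and with 3 animals the smallest p is 0.0238. Without replicate 1 of 1 dpn, or without replicate 6 of 28 dpn, the count was 13.

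**Figure D5:**
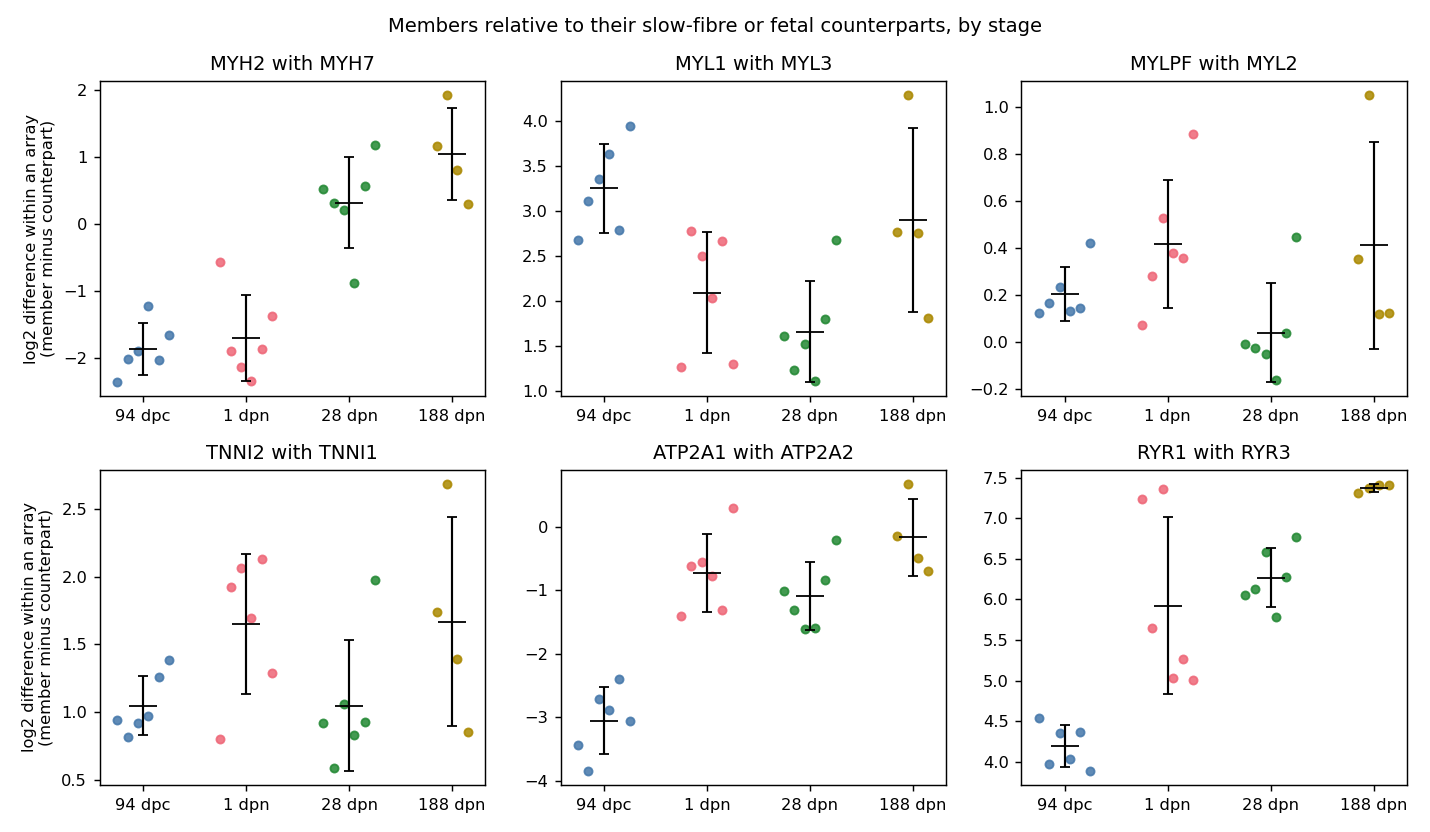
Within-array log2 difference between each member and its counterpart, by stage, with 1 point per animal and the mean and SD in black (separate axis ranges). MYH2 with MYH7 steps up between 1 and 28 dpn and ATP2A1 with ATP2A2 between 94 dpc and 1 dpn, while the stages overlap in MYLPF with MYL2 and TNNI2 with TNNI1.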

How the data were processed

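Each of 22 samples had 1 array. The deposited table gives a linear signal intensity for each of 24123 probe sets (1 to 111760). GCOS 1.1.1 is named in the submitters' processing notes. After trimming 2% at each end the mean was 500 on every array. Per the labels, RNA was isolated with TRI Reagent and made into biotinylated cRNA. The table carries no detection calls. Background was the 95th percentile of 23 control probe sets without a target, and the 124 control probe sets were left out of tests. The test was limma (version 3.58.1, R 4.3.3) on log2(signal + 16), with 1 mean per stage. Fold changes on this scale understate those of dim probe sets. The script was tested on simulated data. Array numbers, 6, 6, 6 and 4, limit precision. Permutation tests used scipy 1.17.1. Replicate numbers follow sample order and pair nothing. No pair of arrays was identical.

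The members and the gene lists were chosen with earlier results of these data known. Each gene was read by its brightest probe set, up to 5 genes of a list were named by the smallest F-test p, and the 3 most similar genes per member were named. Genes most alike had 1 symbol and a mean above background. Of the probe sets, 10069 carried 1 symbol, 198 several and 13732 none. MYH7, ATP2A2 and other counterparts were named as such. Alternatives covered scaling, pseudocount, variance model, samples, filter, probe-set averaging, 5' signal, signal cap and tissue admixture. Scaling to the array maximum or to the bioB and bioC hybridization controls was added after the data were seen.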

Additional observations from a re-analysis of the deposited data

Results flagged for a closer look

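In 52 groups (7 probe sets and 6 within-array differences over 4 stages) 1 sample was checked for standing apart from the rest of its stage, and 4 did, where chance gives about 5% of groups. MYH2 in replicate 4 of 28 dpn was lowest, at a signal of 40150, against 70504 to 92460 in the other 5 animals. The within-array difference of MYLPF and MYL2 was highest in replicate 6 of 94 dpc, at log2 0.42, against 0.12 to 0.23 in the others, and highest in replicate 6 of 28 dpn, at 0.44, against -0.16 to 0.04. That of TNNI2 and TNNI1 was highest in the same replicate 6 of 28 dpn, at 1.97, against 0.58 to 1.06 in the others.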

How the results depend on the processing

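No paired analysis was possible because replicate numbers were given in sample order and no label ties samples of different stages. The differences of ATP2A1 (both probe sets) at 1 dpn against 94 dpc, of MYH2 and RYR1 at 28 dpn against 1 dpn, and of these genes at 188 dpn against 94 dpc kept their direction and their call under every alternative run. MYL1, MYLPF and TNNI2 were at 50% or more of the array maximum on all 22 arrays, and MYH2 on 9 arrays of 28 and 188 dpn. Whether saturation limited these signals was not tested. The number of arrays limits precision for every member. In what follows the cause of each change was not tested. For 188 dpn against 94 dpc 4 members in place of 7 were called after quantile normalization, with capped signals, relative to the array maximum and relative to the hybridization controls, and over any stage 4 in place of 7 under the first 3 of these. Of the stage comparisons 17 in place of 26 were called with capped signals and relative to the array maximum. At 1 dpn against 94 dpc 2 in place of 4 were called with only the even 1 dpn arrays and with the GAPDH ratio as covariate. Of the tests against counterparts 0 in place of 8 passed with the even arrays, where the smallest possible p is 0.0714, and 4 to 13 passed with 1 sample left out. Leaving out 1 sample changed no other of these counts by over 1.5 times. Of all probe sets, 18697 in place of 7836 were called at 1 dpn against 94 dpc and 1838 in place of 2843 at 188 dpn against 28 dpn relative to the hybridization controls, and 3347 in place of 5357 at 28 dpn against 1 dpn when only these stages were fitted.

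Signs turned as follows. At 1 dpn against 94 dpc quantile normalization gave log2 -0.046 for MYL1, -0.020 for MYLPF and -0.22 for TNNI2, the array maximum gave -0.091, -0.079 and -0.28 in that order, and the hybridization controls gave -0.60, -0.59 and -0.79, with -0.51 for MYH2. The median of all probe sets in that comparison was -0.77 relative to the array maximum and -1.23 relative to the hybridization controls. RYR1 was at 0.028 there with arrays centred. At 28 dpn against 1 dpn ATP2A1 was at 0.67 with the mean of its probe sets (called), 0.26 with the even arrays, 0.21 with the GAPDH covariate and 0.27 relative to the hybridization controls, and MYLPF was at -0.090 relative to the array maximum. Between 188 and 28 dpn MYL1, MYLPF and TNNI2 were at 0.098, 0.13 and 0.14 with arrays centred, 0.093, 0.13 and 0.14 relative to the array maximum and 0.17, 0.21 and 0.22 relative to the hybridization controls, and MYLPF and TNNI2 at 0.045 and 0.048 after quantile normalization. For 188 dpn against 94 dpc MYLPF was at -0.042 relative to the array maximum. Against counterparts, ATP2A1 with ATP2A2 at 28 dpn against 1 dpn was at 0.49 with probe sets averaged. With the even arrays, MYL1 with MYL3 at 28 dpn against 1 dpn was at 0.37, and TNNI2 with TNNI1 at -0.0057 (1 dpn against 94 dpc) and 0.0057 (28 dpn against 1 dpn). With 1 sample left out, the shift ranged from -0.061 to 0.29 for MYH2 with MYH7 at 1 dpn against 94 dpc, and at 188 dpn against 94 dpc from -0.0056 to 0.30 for MYLPF with MYL2 and from -0.81 to 0.016 for MYL1 with MYL3. MYH2 at 188 dpn against 28 dpn ranged from -0.035 (without replicate 4 of 28 dpn) to 0.21.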
